A study of Mus musculus with 10 samples.

Results

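The genes described here make cholesterol and control its supply: 31 genes, chosen by symbol from a list of 20 enzymes of cholesterol synthesis, 7 genes that control the SREBP transcription factors, and the 2 liver X receptors (LXRs), Abca1 and Stard4. All 31 were found among the 19178 genes of the count table, and all 31 passed the filter on low counts that left 18248 genes for testing. They were measured in poly(A) RNA from dendritic cells of the mouse, which present antigen to T cells. Sequencing covered 5 libraries labelled as Ptbp1 deficient and 5 labelled wild type (WT), all from mice aged 8 to 10 weeks. PTBP1 protein binds RNA and regulates splicing, and the comparison asks how loss of this protein alters transcript levels in these cells. How the deficiency was made, in which cells the gene was lost, the tissue the cells came from and the sex of the mice were not given in the labels.

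Cholesterol is built from acetyl-CoA through mevalonate and isoprenoid intermediates to squalene, which is closed into lanosterol and then trimmed to cholesterol. The SREBP factors, encoded by Srebf1 and Srebf2, are held in the endoplasmic reticulum by SCAP and the INSIG proteins while sterols are plentiful. When sterols fall, SCAP carries them to the Golgi, where the proteases encoded by Mbtps1 and Mbtps2 release the part that enters the nucleus and activates the synthesis genes. Oxysterols act in the other direction through the LXRs, which induce export of cholesterol by the transporter ABCA1, and in dendritic cells sterol balance is known to bear on membrane signalling and antigen presentation.

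Ptbp1 itself (ENSMUSG00000006498) stood at 75.0, 73.4, 74.6, 73.2 and 75.7 CPM (counts scaled to library size, with TMM normalization) in deficient replicates 1 to 5 and at 259, 296, 312, 310 and 294 CPM in the WT replicates. The groups were far apart, and the deficient mean was 25.3% of the WT mean (log2 fold change -1.98, SE 0.051, adjusted p = 1.9e-09). Gene counts totalled 61759378 to 92697815 in the deficient libraries and 50516163 to 66153758 in the WT libraries, and the smallest count of any of the 31 genes in any library was 160. Each gene was tested by edgeR's quasi-likelihood method, its p adjusted by Benjamini-Hochberg across the genes tested, and it was called higher or lower at an adjusted p under 0.05. Whether each library is a separate mouse is not stated in the labels, so these p-values measure the spread between libraries only. In bulk RNA, fewer cells of a type and less RNA per cell cannot be told apart.

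Libraries of a group were not uniform. The 15 macrophage markers measured, of 16 listed, summed to 2702 and 4006 CPM in WT replicates 1 and 5 but 1344 to 1403 CPM in WT replicates 2 to 4, and to 422 and 406 CPM in deficient replicates 1 and 2 but 977 to 1142 CPM in deficient replicates 3 to 5, with 0 higher and 10 lower. The 8 general dendritic cell markers summed to 33488 to 36046 CPM in the deficient and 28304 to 34669 CPM in the WT libraries. Of 8 markers of type 1 conventional dendritic cells (cDC1) 7 were higher (5484 to 6509 against 3102 to 4035 CPM), and all 8 markers of type 2 cells (cDC2) were lower (799 to 1015 against 1286 to 1404 CPM). All 10 proliferation genes were higher (1253 to 1346 against 566 to 780 CPM). Beside the calls in these lists, 21.9% of all genes tested were higher and 23.1% were lower. Natural killer cell markers were higher in 6 of 8 cases (76.5 to 135 against 3.48 to 47.9 CPM), B cell markers lower in 8 of 10 (112 to 135 against 144 to 684 CPM), and T cell markers were called in 0 of 8 (21.5 to 28.1 against 4.90 to 62.0 CPM). WT replicate 5 bore on the lymphoid markers, and on the calls for T cell markers most. Without it 8 of 8 T cell markers were higher (median log2 fold change 1.65 in place of 0.22). Natural killer cell markers kept their direction, with 8 of 8 higher (median 3.43 in place of 2.19). The median of the B cell markers stayed negative, at -0.85 in place of -1.78, with 6 lower and 1 higher. The deposited count table holds only genes with at least 2 counts in each library, so no marker could be at 0. The part of these markers in the results that follow was not tested.

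The promoters shown here are those of Hmgcs1, Mvk, Nsdhl and Tm7sf2. Hmgcs1 was the only gene of the set with a window that held the motif TCACNCCAC. Mvk and Nsdhl held several CCAAT boxes, and Tm7sf2 was the synthesis gene called lower. Each window runs from 250 bases before to 50 bases after the transcription start, 5′ to 3′ along the gene, from RefSeq on GRCm38.p6. Capitals mark TCACNCCAC, one consensus of the element bound by SREBPs, and CCAAT, the box bound by NF-Y, a factor known to act together with SREBPs, each searched on both strands, so that ATTGG is CCAAT on the other strand. The windows are chr13:119690101-119690400 (plus strand) for Hmgcs1, chr5:114444019-114444318 (plus strand) for Mvk, chrX:72918271-72918570 (plus strand) for Nsdhl and chr19:6067801-6068100 (minus strand) for Tm7sf2.
Hmgcs1: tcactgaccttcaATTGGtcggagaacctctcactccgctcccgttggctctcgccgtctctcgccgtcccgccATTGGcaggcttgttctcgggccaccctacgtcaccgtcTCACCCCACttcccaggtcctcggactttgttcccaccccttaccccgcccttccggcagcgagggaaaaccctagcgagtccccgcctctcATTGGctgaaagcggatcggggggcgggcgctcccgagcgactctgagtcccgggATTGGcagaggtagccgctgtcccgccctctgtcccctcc
Mvk: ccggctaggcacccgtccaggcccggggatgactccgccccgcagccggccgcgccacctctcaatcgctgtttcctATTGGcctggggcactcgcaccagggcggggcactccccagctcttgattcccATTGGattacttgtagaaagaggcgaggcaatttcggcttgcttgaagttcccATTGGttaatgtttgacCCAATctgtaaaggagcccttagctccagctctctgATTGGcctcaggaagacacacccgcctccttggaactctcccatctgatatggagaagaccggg
Nsdhl: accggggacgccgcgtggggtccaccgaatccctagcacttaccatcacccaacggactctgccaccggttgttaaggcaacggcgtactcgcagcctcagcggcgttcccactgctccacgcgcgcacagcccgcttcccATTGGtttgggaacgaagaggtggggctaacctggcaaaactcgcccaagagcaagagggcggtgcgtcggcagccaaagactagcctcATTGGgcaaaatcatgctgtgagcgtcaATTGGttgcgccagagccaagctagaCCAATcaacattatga
Tm7sf2: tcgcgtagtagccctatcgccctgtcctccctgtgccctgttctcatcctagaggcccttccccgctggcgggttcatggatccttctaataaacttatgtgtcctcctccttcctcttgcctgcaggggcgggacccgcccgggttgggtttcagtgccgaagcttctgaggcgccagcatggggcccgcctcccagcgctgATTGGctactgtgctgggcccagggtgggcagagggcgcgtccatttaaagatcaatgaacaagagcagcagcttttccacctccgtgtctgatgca

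RefSeq windows were matched for 27 of the 31 genes, all but Fdps, Fdft1, Sqle and Stard4. The motif TCACNCCAC, a consensus of the sterol regulatory element, was found in 1 of the 27, against 1.44% of 27025 genes with a window. It stood in Hmgcs1 as TCACCCCAC, 137 to 129 bases before the start. Other forms of the element were not searched. A CCAAT box was found in 20 of the 27, against 41.1% of all genes. A gene with several windows was counted if any of them held the motif, in this set and among all genes. All 10 of the genes called higher that had a window held one, as did 9 of the 15 genes that were not called and 1 of the 2 called lower, Tm7sf2 and not Abca1. Of those 10, Pmvk, Insig2 and Srebf1 also had a window without a CCAAT box. Hmgcs1 and Nsdhl held 4 each, Mvk 5 and Tm7sf2 1. The motifs CCAAT and TCACNCCAC do not overlap in these windows, and a match describes letters, not binding.

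Across the 31 genes, 14 were called higher in the Ptbp1-deficient libraries, 2 were called lower and 15 were not called. Of all genes tested 21.9% were called higher, 23.1% lower and 45.0% in either direction, and of this set 45.2% were higher and 6.45% lower. The changes were small. The median log2 fold change of the 31 genes was 0.15, beside -0.026 over all genes, and it ran from -2.06 for Abca1 to 0.60 for Fdps, the only gene called higher that passed 1.5-fold. The CPM of the groups did not overlap in 12 of the 31 genes (38.7%), 10 of them higher and 2 lower, where 33.4% of all genes did so, 17.2% higher and 16.2% lower. Of the 16 calls, 11 were kept whichever single library was left out.

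**Figure D1:**
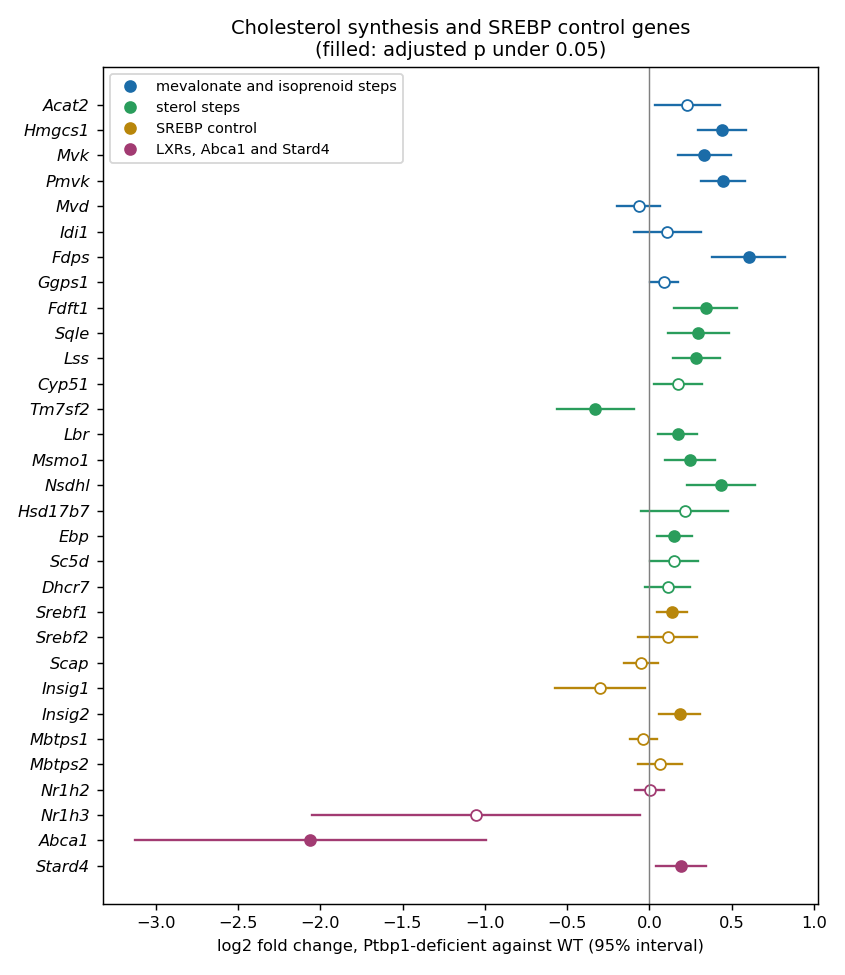
Log2 fold change of each gene between Ptbp1-deficient and WT libraries (x axis) with its 95% interval, genes in pathway order and coloured by role, filled where the adjusted p was under 0.05. Synthesis enzymes lie between -0.33 and 0.60, and Abca1 at -2.06.

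The enzymes of synthesis carried most of the higher calls. Of 20 enzymes 11 were higher and 1, Tm7sf2, was lower, with a median log2 fold change of 0.22. These shares were 55.0% and 5.00%, beside 21.9% and 23.1% of all genes. Among the 8 enzymes that lead from acetyl-CoA to the isoprenoids, 4 were higher (Hmgcs1, Mvk, Pmvk and Fdps), none was lower, and the median was 0.28. Among the 12 enzymes from squalene onwards, 7 (58.3%) were higher (Fdft1, Sqle, Lss, Lbr, Msmo1, Nsdhl and Ebp), 1 (8.33%) was lower, and the median was 0.19.

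Acat2, whose product joins acetyl-CoA units into acetoacetyl-CoA, had 8.13 ± 0.408 CPM (SD, n = 5) in the deficient and 6.94 ± 0.778 CPM (n = 5) in the WT libraries. The difference missed the threshold (log2 fold change 0.23, 95% interval 0.03 to 0.43, adjusted p = 0.056), and passed it without WT replicate 1 (0.29, adjusted p = 0.022). Acat3 is a close paralog of Acat2, and reads that fit both could be missing from its counts. The deposited counts set apart reads without a unique alignment, 4.51% to 5.08% of the reads tallied in each library. Hmgcs1, the HMG-CoA synthase that precedes mevalonate (chromosome 13, 119690379 to 119708260, plus strand of GRCm38), stood at 47.3, 47.9, 49.0, 47.0 and 43.0 CPM in deficient replicates 1 to 5 and at 35.1, 33.1, 38.0, 36.9 and 29.5 CPM in the WT replicates. Every deficient library was above every WT library, and replicate 5 was the lowest of each group. Hmgcs1 rose 1.36-fold (log2 fold change 0.44, SE 0.067, adjusted p = 2.5e-04).

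The kinases that phosphorylate mevalonate in turn both rose. Mvk, mevalonate kinase, stood at 12.3, 13.5, 11.5, 11.9 and 12.7 CPM against 8.99, 9.44, 11.1, 10.0 and 9.65 CPM in WT. The highest WT library, replicate 3, lay just under the lowest deficient library, and the rise was 1.26-fold (log2 fold change 0.33, SE 0.074, adjusted p = 0.0033). Pmvk, phosphomevalonate kinase, stood at 29.6, 28.5, 30.6, 32.0 and 30.3 CPM against 21.2, 23, 22.0, 24.9 and 19.9 CPM. Its groups were clearly apart, with a rise of 1.36-fold and the smallest adjusted p of the 31 genes (log2 fold change 0.45, SE 0.062, adjusted p = 1.4e-04).

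The next enzyme, Mvd, which decarboxylates the product to isopentenyl diphosphate, differed from these. Its CPM was 24.5, 24.1, 26.9, 24.5 and 25.3 in the deficient and 25.9, 25.3, 28.2, 28.1 and 23.6 in the WT libraries, with full overlap (log2 fold change -0.07, 95% interval -0.20 to 0.06, adjusted p = 0.40). Idi1, the isomerase that follows, had 11.9 ± 0.853 against 11.1 ± 1.47 CPM (log2 fold change 0.11, 95% interval -0.10 to 0.31, adjusted p = 0.38). The upper bounds of both intervals lie below the log2 changes of Hmgcs1 and Pmvk, and the difference between genes was not tested.

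Fdps makes farnesyl diphosphate, the branch point for sterols, protein prenylation and other isoprenoids. It stood at 11.9, 11.6, 14.2, 14.6 and 12.8 CPM in the deficient and 7.04, 9.26, 9.08, 9.60 and 7.99 CPM in the WT libraries. The groups did not overlap, and Fdps rose 1.52-fold (log2 fold change 0.60, SE 0.10, adjusted p = 5.6e-04). Ggps1, which extends farnesyl diphosphate for geranylgeranylation, had 31.7 ± 0.819 against 29.9 ± 0.752 CPM, a log2 fold change of 0.09 (95% interval 0.00 to 0.17, adjusted p = 0.083) that passed the threshold without WT replicate 1 (0.11, adjusted p = 0.042).

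**Figure D2:**
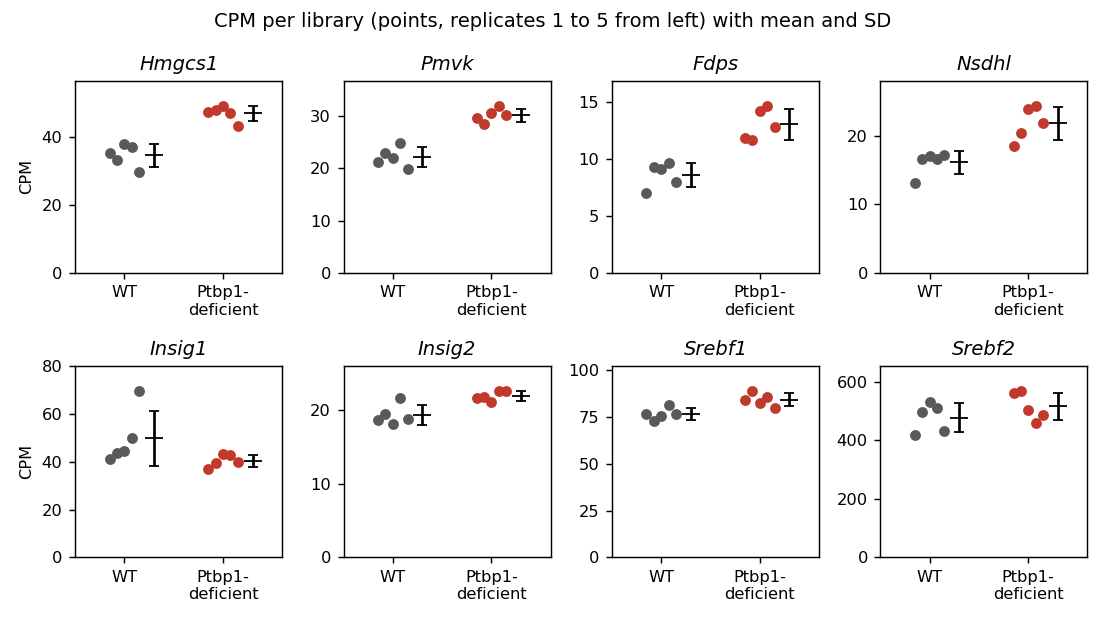
CPM of 8 genes in each library (y axis from 0; points are replicates 1 to 5 from left to right, WT grey and Ptbp1-deficient red), with the mean and SD beside them. The groups are apart for Hmgcs1, Pmvk, Fdps and Nsdhl and overlap for Insig1, Insig2, Srebf1 and Srebf2, and WT replicate 5 has 69.7 CPM of Insig1.

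The entry into the sterol branch was higher at each of its 3 steps. Fdft1, squalene synthase, had 19.3, 17.9, 23, 22.3 and 20.4 CPM against 16.2, 15.1, 18.1, 17.6 and 14.2 CPM; deficient replicate 2 lay within the WT range, and the rise was 1.27-fold (SE of the log2 fold change 0.087, adjusted p = 0.0076). Sqle, squalene epoxidase, a flux-controlling enzyme of the pathway, had 16.8 to 19.99 CPM against 12.6 to 16.6 CPM and rose 1.23-fold (adjusted p = 0.014). Lss, which closes the epoxide into lanosterol, had 17.1 to 18.6 CPM against 13.2 to 15.6 CPM and rose 1.22-fold (adjusted p = 0.0041). The call for Sqle was lost without WT replicates 1 and 5 (log2 fold change 0.21, adjusted p = 0.053).

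By counts, the 2 enzymes that can reduce the same double bond of the sterol ring after the demethylase CYP51 moved in opposite directions. Tm7sf2, the reductase of the endoplasmic reticulum (chromosome 19, 6062821 to 6068373, minus strand of GRCm38), had 5.00, 4.52, 5.27, 5.44 and 5.58 CPM in the deficient and 7.87, 5.76, 6.14, 5.88 and 6.76 CPM in the WT libraries. The groups did not overlap, though the gap between deficient replicate 5 and WT replicate 2 was narrow. Tm7sf2 fell, with a log2 fold change of -0.33 (SE 0.11, adjusted p = 0.025). That call was lost without deficient replicate 1 (-0.32, adjusted p = 0.053), deficient replicate 2 (-0.29, adjusted p = 0.061) or WT replicate 1 (-0.24, adjusted p = 0.061). Without WT replicates 1 and 5 the adjusted p was 0.12, and 532 exonic bases of Tm7sf2 are shared with Vps51 on the same strand.

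Lbr encodes the other reductase, a protein of the inner nuclear membrane that also binds lamin B and heterochromatin. It had 142, 141, 136, 127 and 133 CPM in the deficient and 106, 121, 131, 123 and 122 CPM in the WT libraries. WT replicate 3 exceeded deficient replicate 4, and Lbr rose by a log2 fold change of 0.17 (SE 0.055, adjusted p = 0.024). On the deposited FPKM scale, which allows for transcript length, WT libraries held 38.1 ± 1.87 FPKM of Lbr and 14.95 ± 1.89 FPKM of Tm7sf2. Tested with limma on that scale, Lbr was called higher (log2 fold change 0.18, adjusted p = 0.024). The fall of Tm7sf2 was not called there (-0.13, limma adjusted p = 0.29). Cyp51 itself, the lanosterol demethylase, had 42.4 ± 2.50 against 37.6 ± 3.47 CPM (log2 fold change 0.17, 95% interval 0.03 to 0.32, adjusted p = 0.052), and passed the threshold without WT replicate 3 (adjusted p = 0.034) or WT replicate 4 (adjusted p = 0.047).

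The enzymes that remove the methyl groups next in the sequence include Msmo1, Nsdhl and Hsd17b7. Nsdhl, the decarboxylating dehydrogenase (chromosome X, 72918557 to 72958514, plus strand of GRCm38), had 18.6, 20.5, 24.0, 24.4 and 21.8 CPM in the deficient and 13.1, 16.7, 17.1, 16.6 and 17.2 CPM in the WT libraries. The groups did not overlap, WT replicate 1 was the lowest, and Nsdhl rose 1.35-fold (log2 fold change 0.44, SE 0.094, adjusted p = 0.0028). Msmo1, the methyl sterol oxidase, had 17.5 to 19.5 CPM against 13.4 to 16.9 CPM and rose 1.18-fold (adjusted p = 0.013). Hsd17b7, the reductase of the resulting ketone, was near the bottom of the set at 5.87 ± 0.366 against 5.06 ± 0.896 CPM and was not called (log2 fold change 0.21, 95% interval -0.05 to 0.48, adjusted p = 0.17).

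Changes were small at the closing steps. Ebp, the sterol isomerase, had 29.9 to 32.9 CPM against 26.4 to 29.8 CPM, apart only narrowly, and rose by a log2 fold change of 0.15 (SE 0.049, adjusted p = 0.027). Its call was lost on leaving out deficient replicate 3, 4 or 5 (adjusted p = 0.069, 0.052 and 0.057) or WT replicate 2 or 3 (adjusted p = 0.066 and 0.053). Sc5d, the desaturase, had 24.2 ± 1.56 against 21.8 ± 1.79 CPM (log2 fold change 0.15, adjusted p = 0.096), with adjusted p = 0.0496 without deficient replicate 5 and 0.022 without WT replicate 5. Dhcr7, a reductase that acts at the end of the pathway, had 16.0 ± 0.890 against 14.8 ± 0.807 CPM (log2 fold change 0.11, 95% interval -0.02 to 0.25, adjusted p = 0.17).

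**Figure D3:**
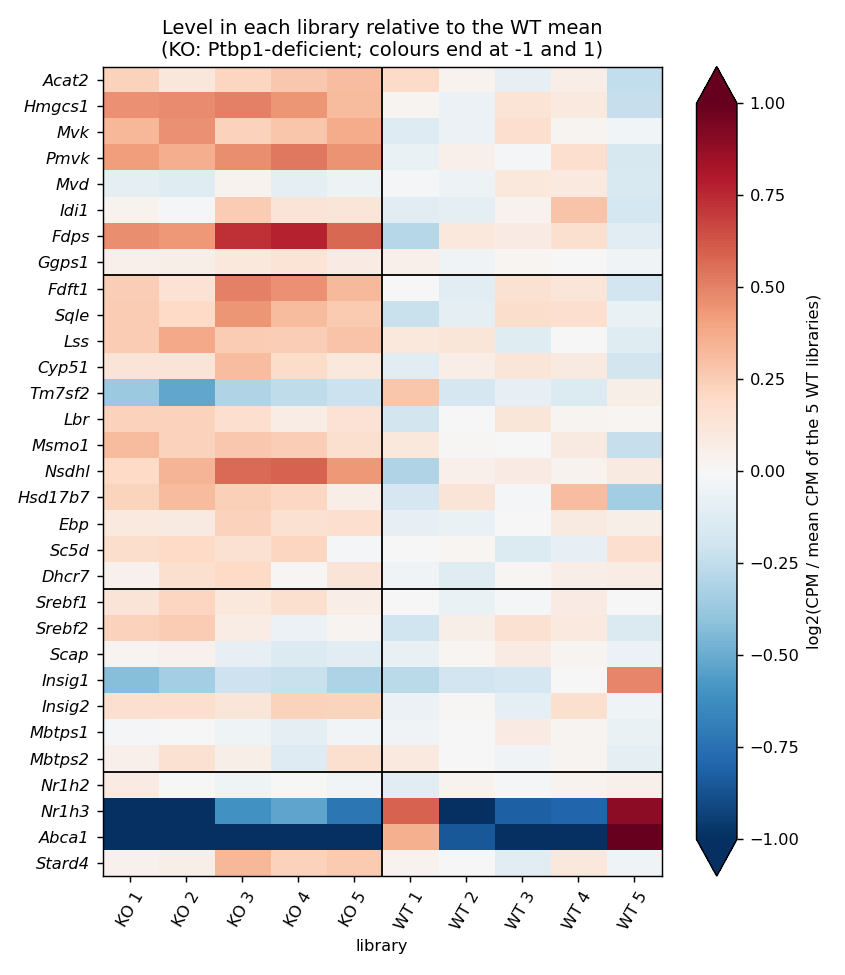
Log2 ratio of the CPM of each gene in each library to the mean CPM of the 5 WT libraries (colour, ending at -1 and 1), with genes in rows by role and libraries in columns (KO, Ptbp1-deficient). Most enzyme rows are faintly raised in all deficient libraries, whereas Nr1h3 and Abca1 are above the WT mean only in WT replicates 1 and 5. Nr1h3 has its lowest values in deficient replicates 1 and 2, and Abca1 is past the low end of the colours in every deficient library.

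Of the 7 genes that control SREBP activity, 2 were higher and none was lower (28.6% and 0%, beside 21.9% and 23.1% of all genes). The median log2 fold change was 0.06. In 0 of the 7 did the groups separate, where they did so in 33.4% of all genes. Srebf1, which encodes the SREBP best known for fatty acid genes, had 83.9, 89.0, 82.2, 85.6 and 80.0 CPM against 76.4, 72.9, 75.4, 81.1 and 76.7 CPM. Deficient replicate 5 lay within the WT range, and Srebf1 rose by a log2 fold change of 0.14 (SE 0.041, adjusted p = 0.018; 0.12 and adjusted p = 0.0504 without WT replicate 2). Srebf2, whose product is the main activator of the cholesterol genes, had 560, 569, 502, 459 and 486 CPM against 416, 496, 530, 510 and 431 CPM. The groups overlapped and it was not called (log2 fold change 0.11, 95% interval -0.07 to 0.29, adjusted p = 0.29), with deficient replicates 1 and 2 highest and WT replicates 1 and 5 among the lowest.

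The escort and the proteases showed no called change by counts. Scap had 119 ± 6.66 against 124 ± 5.62 CPM (log2 fold change -0.05, 95% interval -0.15 to 0.05), the site-1 protease gene Mbtps1 136 ± 3.09 against 140 ± 5.49 CPM (-0.04, -0.12 to 0.04), and the site-2 protease gene Mbtps2 25.6 ± 2.01 against 24.5 ± 1.18 CPM (0.06, -0.07 to 0.20). Their adjusted p-values were 0.43, 0.44 and 0.44, and no bound of these 95% intervals lies further from 0 than 0.20. In the deposited FPKM values, tested with limma, both proteases were called lower. The log2 fold changes there were -0.12 for Mbtps1 (limma adjusted p = 0.045) and -0.33 for Mbtps2 (limma adjusted p = 0.0041).

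The 2 INSIG genes, whose proteins retain SCAP when sterols are plentiful, had fold changes of opposite sign, and 1 of them was called. Insig1, itself an SREBP target, had 37.1, 39.3, 43.1, 42.6 and 40.1 CPM in the deficient and 41.4, 43.5, 44.3, 49.8 and 69.7 CPM in the WT libraries. WT replicate 5 stood well above the others, the groups overlapped, and the difference was not called (log2 fold change -0.30, 95% interval -0.57 to -0.03, adjusted p = 0.071). It passed the threshold without WT replicate 1 (-0.35, adjusted p = 0.042) and without WT replicates 1 and 5 (-0.18, adjusted p = 0.036).

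Insig2, which is less tied to SREBP activity, had 21.6, 21.8, 21.1, 22.6 and 22.6 CPM against 18.6, 19.5, 18.2, 21.6 and 18.8 CPM. WT replicate 4 reached the deficient range, and Insig2 rose by a log2 fold change of 0.18 (SE 0.057, adjusted p = 0.021), a call lost without deficient replicate 4 or 5 (adjusted p = 0.054 and 0.053) or WT replicate 3 (adjusted p = 0.054). Since a ratio within a library does not depend on depth or scaling, the counts of Insig1 were divided by those of Insig2. The ratio was 1.71, 1.81, 2.05, 1.88 and 1.77 in the deficient and 2.22, 2.23, 2.44, 2.30 and 3.71 in the WT libraries, without overlap.

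On the log2 scale this ratio was 0.88 ± 0.099 against 1.34 ± 0.31, a difference of -0.46 (exact two-sided permutation test over all assignments of libraries to groups, n = 5 and 5, p = 0.00794, the smallest they can give, 0.0238 after adjustment over the 3 ratios tested). The other ratios did not separate the groups. The log2 ratio of Srebf2 to Srebf1 differed by -0.023 (exact permutation p = 0.786), and that of Nr1h3 to Nr1h2 by -1.01 (exact permutation p = 0.159, 0.238 after adjustment). In the deposited FPKM values the Insig1 to Insig2 difference was -0.35 and did not pass (exact permutation, adjusted p = 0.262).

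The LXR gene Nr1h3 and Abca1 had larger fold changes than the enzymes and uneven replicates, whereas the other LXR gene, Nr1h2, had neither. Nr1h2, the LXR expressed in most cells, had 152 ± 5.13 against 152 ± 6.66 CPM (log2 fold change 0.00, 95% interval -0.09 to 0.09, adjusted p = 0.99). Nr1h3, the LXR abundant in macrophages, had 6.46, 5.77, 18.0, 19.1 and 16.6 CPM in the deficient and 41.4, 13.3, 15.6, 15.8 and 51.2 CPM in the WT libraries. Deficient replicates 1 and 2 were lowest, WT replicates 1 and 5 highest, and among the other 6 libraries deficient replicates 3 to 5 were all above WT replicates 2 to 4. The difference was not called (log2 fold change -1.05, 95% interval -2.05 to -0.06, adjusted p = 0.080), and without WT replicates 1 and 5 its adjusted p was 0.74.

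Abca1, the cholesterol exporter (chromosome 4, 53030787 to 53159895, minus strand of GRCm38), had 2.65, 2.50, 6.07, 7.47 and 5.80 CPM in the deficient and 26.2, 11.4, 9.09, 10.1 and 45.7 CPM in the WT libraries. All deficient libraries were below all WT libraries, and Abca1 fell to 23.9% of the WT mean (log2 fold change -2.06, SE 0.49, 95% interval -3.12 to -0.99, adjusted p = 0.0048). WT replicates 1 and 5 set much of that size: without them the log2 fold change was -1.05 (adjusted p = 0.017), and without deficient replicates 1 and 2 it was -1.68. The libraries at both ends of the range of Abca1 were also those at the ends of the summed macrophage markers, which were highest in WT replicates 5 and 1 (4006 and 2702 CPM) and lowest in deficient replicates 2 and 1 (406 and 422 CPM). The part of macrophage RNA in the level of Abca1 and Nr1h3 was not tested.

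**Figure D4:**
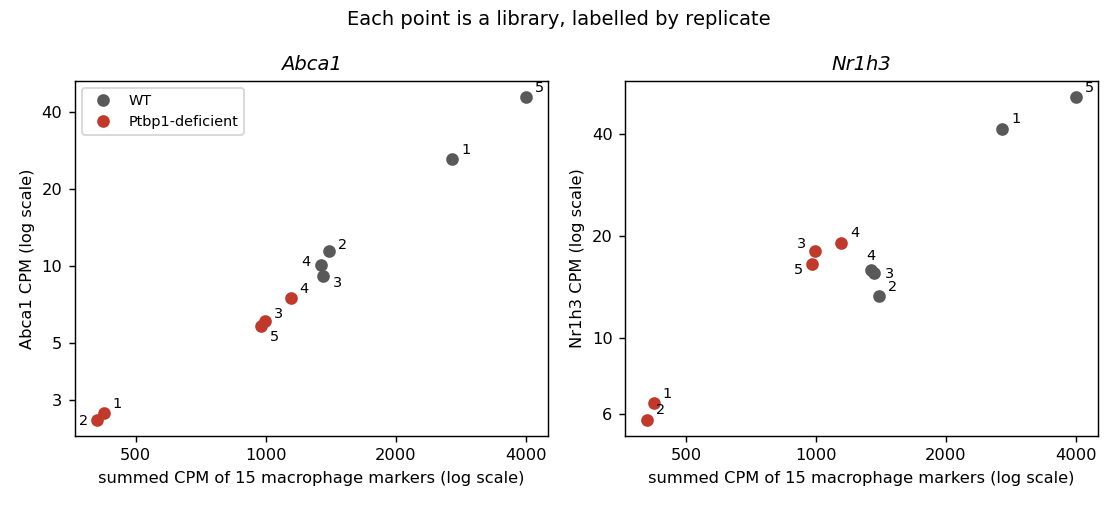
CPM of Abca1 (left) and Nr1h3 (right) against the summed CPM of 15 macrophage markers, both axes logarithmic, 1 point per library labelled by replicate, WT grey and Ptbp1-deficient red. WT replicates 1 and 5 are at the upper right and deficient replicates 1 and 2 at the lower left of both plots, and in Nr1h3 the other 6 libraries lie between 13.3 and 19.1 CPM.

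Stard4, which carries cholesterol between membranes, had 18.2, 18.4, 22.2, 20.7 and 21.2 CPM against 18.1, 17.6, 16.3, 19.0 and 17.2 CPM. Deficient replicates 1 and 2 lay within the WT range, and Stard4 rose by a log2 fold change of 0.19 (SE 0.070, adjusted p = 0.043). It had the largest adjusted p of the 16 calls, lost without deficient replicate 3, 4 or 5 (adjusted p = 0.11, 0.096 and 0.11) or WT replicate 2, 3 or 5 (adjusted p = 0.083, 0.11 and 0.062).

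The deposited FPKM values allow levels to be compared between genes, for the 30 of the 31 genes they cover (all but Abca1). In WT libraries Srebf2 (70.6 ± 5.70 FPKM) and Nr1h2 (66.8 ± 3.34 FPKM) were highest, with overlapping ranges, followed by Lbr (38.1 ± 1.87), Scap (35.3 ± 1.52) and Mbtps1 (26.4 ± 1.14). Srebf1 (20.4 ± 0.727) and Insig1 (19.8 ± 4.81) came next and overlapped. Apart from Lbr, the enzymes stood lower, from Pmvk at 17.3 ± 1.17 FPKM to Lss at 2.94 ± 0.30 and Hsd17b7 at 1.27 ± 0.219 FPKM. Among the regulators Mbtps2 (9.22 ± 0.608) and Insig2 (7.44 ± 1.00) stood within the range of the enzymes.

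Tested with limma on log2(FPKM + 1), 7 of these 30 genes were higher and 5 lower, beside 20.3% and 27.2% of the 11968 genes of that table, 47.6% in either direction. The 7 were Hmgcs1, Mvk, Pmvk, Fdps, Fdft1, Nsdhl and Lbr, all of them enzymes that were also higher by counts. Log2 fold changes were 0.35 for Hmgcs1 (adjusted p = 0.0015), 0.40 for Pmvk (1.2e-04), 0.46 for Fdps (0.0012) and 0.30 for Nsdhl (0.0065). The 5 called lower were Mvd (-0.17, adjusted p = 0.035), Insig1 (-0.35, adjusted p = 0.036), Mbtps1 (-0.12, adjusted p = 0.045), Mbtps2 (-0.33, adjusted p = 0.0041) and Nr1h2 (-0.30, adjusted p = 0.017), none of them called by counts. Fold changes were lower in FPKM than in counts for 27 of the 30 genes, by a median of -0.11 on the log2 scale where all genes shifted by -0.067, and 7 genes that were positive by counts turned negative: Srebf1 (-0.061), Insig2 (-0.016), Mbtps2 and Nr1h2, and the enzymes Idi1 (-8.1e-05), Ggps1 (-0.071) and Dhcr7 (-0.064). Sqle, Lss, Tm7sf2, Msmo1, Ebp and Stard4 kept their direction in FPKM with adjusted p = 0.26, 0.20, 0.29, 0.16, 0.37 and 0.21.

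Without WT replicates 1 and 5, the libraries with most macrophage marker RNA, 11 of the 31 genes were higher and 2 lower, beside 21.7% and 22.3% of all genes (44.0% in either direction). Without deficient replicates 1 and 2 the counts were 10 and 1, beside 19.3% and 20.6% (39.9% in either direction). The synthesis enzymes made up 10 and 9 of these higher calls. Lbr was not called in either case (adjusted p = 0.057 and 0.12), nor were Insig2 (0.075 and 0.054) and Tm7sf2. Without WT replicates 1 and 5 the calls for Sqle, Ebp and Stard4 were lost too. In that fit Acat2 and Sc5d were called higher and Insig1 lower, none of them called with all libraries. Without deficient replicates 1 and 2 the calls for Msmo1 (0.061) and Srebf1 (0.083) were also lost.

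Related pathways were examined through 5 further lists. Of 16 fatty acid genes measured, 6 were higher and 4 lower (median log2 fold change -0.08). Fasn, fatty acid synthase, rose from 152 ± 11.6 to 196 ± 9.93 CPM (adjusted p = 2.6e-04, log2 fold change 0.37), and Aacs, which activates acetoacetate for lipid synthesis, from 19.4 ± 1.95 to 24.7 ± 0.392 CPM (0.35, adjusted p = 0.0012). Acsl3, an acyl-CoA synthetase, fell from 5.56 ± 0.363 to 3.39 ± 0.321 CPM (-0.71, adjusted p = 1.3e-04), and Fads1, a fatty acid desaturase, from 24.0 ± 1.14 to 18.4 ± 1.10 CPM (-0.38, adjusted p = 2.6e-04). The shares were 37.5% higher and 25.0% lower, beside 21.9% and 23.1% of all genes, so that the lower share was close to that of all genes.

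Of 20 genes of sterol transport, storage and oxidation, 5 were higher and 8 lower (25% and 40%, beside 21.9% and 23.1% of all genes; median -0.007). Soat2, which esterifies cholesterol for storage (chromosome 15, 102150526 to 102163469, plus strand of GRCm38), had 47.9, 52.6, 38.1, 45.3 and 43.2 CPM in the deficient and 11.7, 15.2, 15.02, 15.6 and 9.89 CPM in the WT libraries. It rose 3.37-fold (log2 fold change 1.75, SE 0.13, adjusted p = 1.6e-06; 1.58 in FPKM, adjusted p = 2.7e-06), more than any of the 31 genes. Lrp1, an endocytic lipoprotein receptor, had 61.8, 56.5, 103, 98.4 and 86.6 CPM against 343, 216, 217, 222 and 505 CPM and fell (-1.88, adjusted p = 1.5e-04). As with Abca1, WT replicates 1 and 5 were its highest libraries and deficient replicates 1 and 2 its lowest. Stard5, a sterol-binding carrier, fell from 109 ± 12.0 to 75.0 ± 2.12 CPM (-0.55, adjusted p = 7.0e-05), and Cyp27a1, which makes an oxysterol, from 304 ± 27.1 to 235 ± 6.07 CPM (-0.37, adjusted p = 3.6e-04).

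Of 9 LXR targets and partners, 1 was higher and 4 lower (11.1% and 44.4%, beside 21.9% and 23.1% of all genes; median -0.34). Pltp, the phospholipid transfer protein, rose from 37.1 ± 8.41 to 69.1 ± 6.74 CPM (0.90, adjusted p = 2.4e-04). Mylip, a ubiquitin ligase that degrades lipoprotein receptors, fell from 49.96 ± 8.88 to 32.3 ± 4.10 CPM (-0.63, adjusted p = 0.0012), the LXR partner Rxrb from 162 ± 13.0 to 128 ± 11.3 CPM (-0.34, adjusted p = 0.0019) and Arl4c, a small GTPase, from 254 ± 55.3 to 164 ± 19.9 CPM (-0.63, adjusted p = 0.0024). The called genes of this list differed in direction among themselves.

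Of 20 genes that regulate SREBPs or form the COPII coat that carries SCAP out of the endoplasmic reticulum, 6 were higher and 1 lower (30.0% and 5.00%, beside 21.9% and 23.1% of all genes; median 0.06). The coat component Sec24d had 33.1, 32.7, 40.4, 38.2 and 37.3 CPM against 18.2, 16.9, 16.9, 19.1 and 20.9 CPM, without overlap, and rose 1.98-fold (0.98, adjusted p = 2.5e-06). The COPII GTPase genes Sar1b (47.2 ± 3.49 against 35.1 ± 2.14 CPM, 0.43, adjusted p = 1.3e-04) and Sar1a (121 ± 3.32 against 104 ± 5.06 CPM, 0.22, adjusted p = 0.0014) rose as well. Rnf139, a ubiquitin ligase of the endoplasmic reticulum, rose from 34.6 ± 1.19 to 42.1 ± 2.05 CPM (0.29, adjusted p = 3.0e-04).

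Of 16 genes that use isoprenoids for prenylation, dolichol or ubiquinone, 4 were higher and 3 lower, and these shares (25.0% and 18.8%) were near those of all genes (21.9% and 23.1%; median -0.02). Pdss1, which builds the side chain of ubiquinone, rose from 6.28 ± 0.856 to 10.8 ± 0.508 CPM (0.79, adjusted p = 5.8e-05). Coq2, which attaches that chain, rose from 67.9 ± 3.95 to 75.5 ± 2.19 CPM (0.15, adjusted p = 0.016), and Dhdds, a dolichol synthase subunit, from 30.6 ± 1.83 to 36.3 ± 2.39 CPM (0.25, adjusted p = 0.0040). Chml, a Rab escort protein, fell from 25.2 ± 2.09 to 19.9 ± 1.58 CPM (-0.34, adjusted p = 0.0027). In FPKM, Coq2, Dhdds and Sar1a were not called (adjusted p = 0.25, 0.11 and 0.32), and without WT replicates 1 and 5 the log2 fold change of Coq2 was 0.10 (adjusted p = 0.069).

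**Figure D5:**
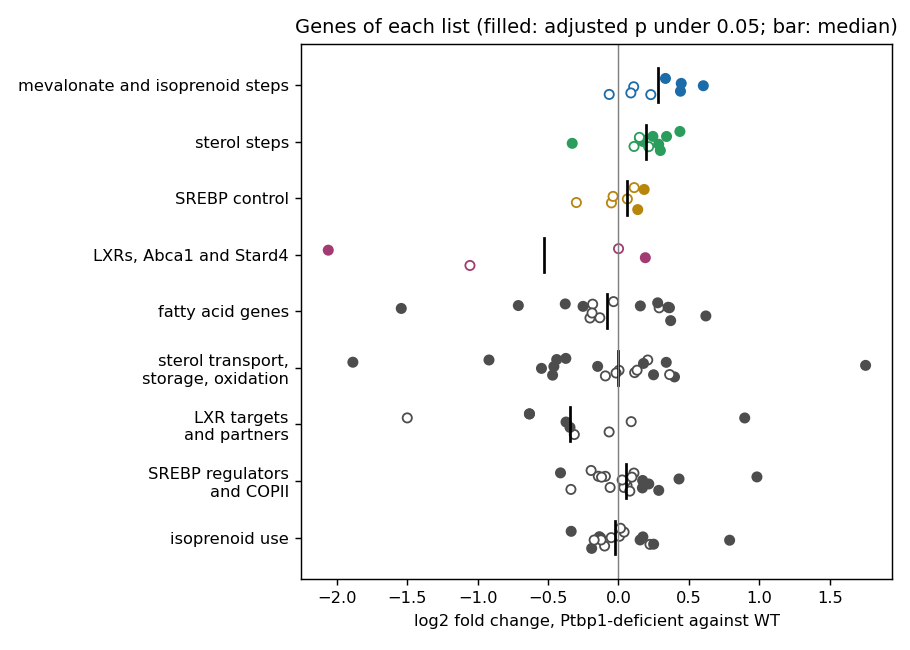
Log2 fold change between Ptbp1-deficient and WT libraries (x axis) for each gene of the 4 roles of the set and of 5 related lists, filled where the adjusted p was under 0.05, with a bar at the median of each list. The mevalonate and sterol steps have medians of 0.28 and 0.19, and Soat2 at 1.75 and Lrp1 at -1.88 are the extremes of the list of transport, storage and oxidation.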

How the data were processed

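Poly(A) RNA of 10 libraries, 5 Ptbp1-deficient and 5 WT by their titles, gave paired reads of 150 bp from an Illumina HiSeq, per the labels. The deposited count table holds unnormalized read counts per gene with at least 2 counts in each library, and the deposited FPKM table, for which the authors' tool is not stated in the labels, lists 11968 genes of at least 1 FPKM. HISAT2, StringTie and DESeq2 are named without versions in the submitters' processing notes, which also name GRCh38, whereas the identifiers are mouse Ensembl ones. Symbols and coordinates came from GENCODE M21 on GRCm38 (99.3% of identifiers matched). The labels do not state whether counting used strand, and 13 of the 31 genes share exonic bases with another annotated gene (Cyp51, Fdft1, Fdps, Ggps1, Hmgcs1, Idi1, Lbr, Lss, Mbtps2, Nr1h3, Scap, Srebf1 and Tm7sf2). The deposited counts set apart a class of ambiguous reads, 1.78% to 1.94% of the reads tallied in each library. Reads from shared bases may thus be missing from the counts of these genes, and any left in may include reads of the partner.

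Genes were filtered with filterByExpr (930 removed), normalized by TMM and tested with edgeR 4.0.16 (quasi-likelihood, genotype as the only term, R 4.3.3). FPKM values were tested with limma 3.58.1 on log2(FPKM + 1), which understates changes of low genes. Ratios were compared with exact permutation tests (SciPy 1.17.1). Alternatives were RLE and upper-quartile scaling, limma-voom with quality weights, DESeq2 1.42.0, no filter, at least 1 CPM in 5 libraries, a replicate block, FPKM with pseudocounts of 1 and 0.1 or a mean of at least 5 FPKM, an adjusted p under 0.01, leaving out each library, and leaving out WT replicates 1 and 5 or deficient replicates 1 and 2. The genes of the set, the lists and these tests were chosen with earlier results of these data known. Named outside the set were Ptbp1 and the called genes, at most 4 a list, whose adjusted p was smallest. Me1, Pnpla3, Vldlr, Ch25h, Nr1h4 and Vsig4 were listed and are not analysed here.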

Additional observations from a re-analysis of the deposited data

Results flagged for a closer look

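In 5 of 104 groups of 5 libraries screened, 1 library stood far from the other 4, and chance alone gives about 1 in 20. Lss, lanosterol synthase, had 18.6 CPM in deficient replicate 2 against 17.1 to 17.5 CPM in the other deficient libraries. Nsdhl, the sterol dehydrogenase, had 13.1 CPM in WT replicate 1 against 16.6 to 17.2 CPM in the other WT libraries. Sc5d, the sterol desaturase, had 21.5 CPM in deficient replicate 5 against 24.2 to 25.3 CPM. Cyp27a1 had 257 CPM in WT replicate 5 against 309 to 324 CPM, and Sar1a had 94.9 CPM in WT replicate 1 against 105 to 107 CPM.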

How the results depend on the processing

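The choice of table mattered most. With FPKM and a pseudocount of 1, a pseudocount of 0.1 or a mean of at least 5 FPKM, 7 genes of the set were higher and 5 lower in each case, the median log2 fold change of the set was 0.053, 0.057 and -8.1e-05, and 2435, 2435 and 2082 of all genes were higher, with 2451 lower in the last. There the log2 fold change reversed for Srebf1 (-0.061, -0.064 and -0.061), Insig2 (-0.016, -0.019 and -0.016), Mbtps2 (-0.33, -0.37 and -0.33), Nr1h2 (-0.30 in all 3), Ggps1 (-0.071, -0.077 and -0.071), Dhcr7 (-0.064, -0.075 and -0.064) and, with a pseudocount of 1 only, Idi1 (-8.1e-05), the log2 ratio of Srebf2 to Srebf1 reversed (0.11), and the Insig1 to Insig2 ratio differed by -0.35. That ratio differed by -0.34 without WT replicates 1 and 5, where 3 against 5 libraries cannot pass after adjustment. A mean of at least 5 FPKM left 8 called genes in the list of sterol transport and 4 in that of isoprenoid use. With upper-quartile scaling 10 genes of the set were higher and 3 lower, 12 SREBP regulators were called, and all genes split into 3456 higher and 4845 lower. At an adjusted p under 0.01, 7 genes of the set were higher and 1 lower, and 3 isoprenoid users were called. 1 gene was lower with limma-voom and without deficient replicates 1 and 2. Leaving out each library in turn gave 11 to 16 higher and 1 to 2 lower genes. Nr1h2, at 0.00, also turned negative with upper-quartile scaling (-0.043), limma-voom (-0.017), at least 1 CPM in 5 libraries (-0.0028), without WT replicates 1 and 5 (-0.018) and without deficient replicates 1 and 2 (-0.027), and ran from -0.023 to 0.014 on leaving out single libraries, as did the ratio of Srebf2 to Srebf1 from -0.070 to 0.023. Over 52 named genes, 1051 single values kept their direction and call, 73 lost the call, 29 gained one and 30 reversed, the causes not being tested. Each gene of the set had at least 160 counts in every library, and no depth-matched fit was run.

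Replicate numbers did not pair the libraries, as same-numbered libraries had correlations of -0.096 to 0.114, and with the replicate block 13 genes of the set were higher and 2 lower.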

Other observations

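Among the fatty acid genes, the 2 stearoyl-CoA desaturase genes went in opposite directions, and were singled out after their values were seen. Scd2 had 165, 171, 131, 150 and 130 CPM in deficient replicates 1 to 5 and 116, 81.9, 81.9, 88.1 and 118 CPM in the WT replicates and rose (log2 fold change 0.62, edgeR adjusted p = 0.0017). Scd1 had 8.70, 8.24, 11.7, 10.7 and 8.11 CPM against 20.5, 14.0, 10.3, 16.9 and 76.4 CPM and fell (-1.54, edgeR adjusted p = 0.020), with WT replicate 5 far above the rest; without it the log2 fold change was -0.70 (edgeR adjusted p = 0.0071). Scd1 was not called with FPKM and a pseudocount of 1 (-0.92, limma adjusted p = 0.055), with limma-voom quality weights (-0.72, adjusted p = 0.057), with the replicate number as a block (-1.11, edgeR adjusted p = 0.073) or without deficient replicates 1 and 2 (-1.45, edgeR adjusted p = 0.095). The LXR target Abcg1, which exports cholesterol to high-density lipoprotein, had 121, 118, 119, 133 and 110 CPM against 151, 112, 101, 99.7 and 164 CPM and was not called (-0.066, edgeR adjusted p = 0.72), with WT replicates 1 and 5 highest; without them it was called higher (0.20, edgeR adjusted p = 0.021).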
